A study of Mus musculus with 15 samples.

Results

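The effect of 16-HDHEA (16-hydroxydocosahexaenoyl ethanolamide) on gene expression was measured with microarrays in the mouse macrophage line RAW264.7 during activation with lipopolysaccharide (LPS). By their sample titles, 3 arrays of LPS-activated cells given 16-HDHEA were set against 3 arrays of LPS-activated cells given vehicle, 6 of the 15 arrays in the series. Both groups were incubated for 30 min with 5.0 µM 16-HDHEA or with vehicle alone, then received 1.0 µg/mL LPS, and were harvested at 24 h. Ethanol was kept at 0.1% in every group, so that the vehicle cells carried it too. The other groups used here for reference, 3 arrays each, were cells without LPS given vehicle, LPS-activated cells given 5.0 µM 13-HDHEA, and LPS-activated cells given 2.5 µM of each compound. Each replicate number is 1 of 3 experiments with an identifier of its own, and arrays with the same number come from the same experiment. All groups are 1 immortalised line at a single time, so that responses of primary macrophages, or earlier ones, are outside these data.

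Macrophages sense LPS, a glycolipid of bacterial outer membranes, through Toll-like receptor 4, which switches on NF-kB and interferon regulators and with them cytokine, chemokine and antimicrobial genes. Docosahexaenoyl ethanolamide is an N-acyl ethanolamine, the family of the endocannabinoid anandamide, made from an omega-3 fatty acid. Cyclooxygenase 2, which LPS induces in macrophages, can oxygenate it, and 13-HDHEA and 16-HDHEA are hydroxylated products of this kind that differ in the carbon carrying the hydroxyl group. The comparison asks whether adding such a product changes what activated macrophages express.

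No gene passed the test between 16-HDHEA and vehicle. Of 15468 genes tested, 0 were higher and 0 lower at a Benjamini-Hochberg adjusted p under 0.05 in limma (0% of genes in either direction), and the smallest adjusted p was 0.683. At an unadjusted p under 0.05 there were 460 genes, 211 higher and 249 lower with 16-HDHEA, which is 2.97% of those tested. The difference was below 0.2 on the log2 scale, in either direction, for 87.1% of genes, and its median over all genes was -0.00059. Genes were split evenly by direction, 7693 higher and 7775 lower, and 25.1% had the same sign in all 3 experiments.

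The arrays lay closer by experiment than by treatment. The root mean square log2 distance over tested genes between a 16-HDHEA array and the vehicle array of its own experiment was 0.235 to 0.242. Between 16-HDHEA arrays of different experiments it was 0.253 to 0.288, and between vehicle arrays 0.268 to 0.279. Every 16-HDHEA array was therefore nearer to the vehicle array of its own experiment than to another array of its own treatment.

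What the 6 arrays could exclude depended on how bright a gene was. The 95% interval of the difference lay inside a 2-fold change in both directions for 98.9% of genes, and inside a 1.5-fold change for 87.1%. Genes were ranked by mean level and cut into equal groups of 3867. In the brightest group, with mean log2 levels of at least 7.89, the latter share was 98.0%, and in the dimmest 76.1%. The unadjusted p values under 0.05 had the same gradient, with 223 in the dimmest group, then 165 and 54, and 18 in the brightest. A difference of over 1.5-fold was measured for 40 genes, of which 26 lay in the dimmest group and 0 in the brightest.

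**Figure D1:**
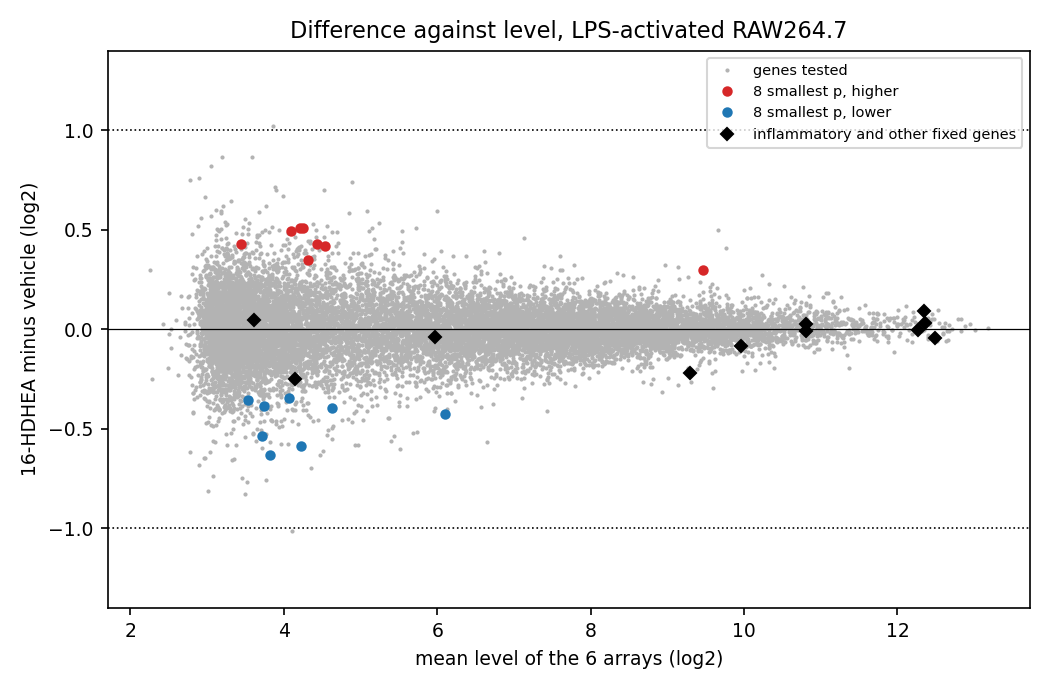
The difference between 16-HDHEA and vehicle (log2, vertical axis) is plotted against the mean level of the 6 arrays (log2, horizontal axis) for 15468 genes, with dotted lines at 2-fold. Coloured points are the 8 genes a direction with the smallest p and black diamonds the genes fixed by name; the cloud narrows as the level rises, and none of the diamonds lies beyond 0.3.

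None of the main inflammatory mediator genes of activated macrophages passed the test. Tnf, the tumour necrosis factor gene, was at 12.52, 12.48 and 12.42 (log2 levels in experiments 1, 2 and 3) with 16-HDHEA and at 12.65, 12.49 and 12.41 with vehicle. These groups overlapped, and the mean difference was -0.04 (95% interval -0.23 to 0.14, higher with 16-HDHEA in 1 of 3 experiments). The lower bound of that interval is a 1.17-fold decrease. Il6, which encodes the fever and acute-phase cytokine interleukin-6, was at 10.85, 10.67 and 10.90 against 10.88, 10.78 and 10.79. Here too the groups overlapped, with a difference of -0.01 (-0.29 to 0.27), so that a decrease of more than 1.22-fold lay outside the interval.

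Il1b, the interleukin-1 beta gene, was at 12.41, 12.31 and 12.41 against 12.39, 12.30 and 12.35, a difference of 0.03 (-0.18 to 0.25). Ccl2, a chemokine gene that attracts monocytes, was at 12.36, 12.23 and 12.23 against 12.31, 12.29 and 12.22, a difference of -0.01 (-0.18 to 0.17). Ptgs2, which encodes cyclooxygenase 2, was at 12.50, 12.35 and 12.31 against 12.47, 12.19 and 12.22, a difference of 0.09 (-0.24 to 0.42). For each of these the groups overlapped, and the intervals left no room for a decrease in array signal of more than 1.18-fold. The levels of these genes and of Tnf lay near the highest signal on any array, 13.36. Whether signal still follows RNA amount at such levels was not tested. Without LPS the mean levels were 9.96 for Tnf, 2.55 for Il6, 3.42 for Il1b, 10.27 for Ccl2 and 7.65 for Ptgs2.

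Nos2, the inducible nitric oxide synthase gene, had a wider interval. It was at 9.32, 9.11 and 9.14 with 16-HDHEA and at 9.60, 9.16 and 9.47 with vehicle, lower in all 3 experiments, and the difference was -0.22 (-0.66 to 0.23; unadjusted p = 0.312 and adjusted p = 1.00 in limma). The groups overlapped, and a decrease of up to 1.58-fold lay within the interval. Il1rn, which encodes the antagonist of interleukin-1 receptors, was at 10.16, 9.96 and 9.62 against 10.21, 10.01 and 9.77, a difference of -0.09 (-0.49 to 0.32). Il10, the gene of a cytokine that restrains macrophages, was dim in both groups, at 3.70, 3.65 and 3.54 against 3.49, 3.64 and 3.63, a difference of 0.05 (-0.22 to 0.31). Hmox1, the heme oxygenase gene, differed by 0.03 (-0.26 to 0.31). Ifnb1, the interferon beta gene, was under the 40th percentile on each of the 6 arrays, which left it untested.

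**Figure D2:**
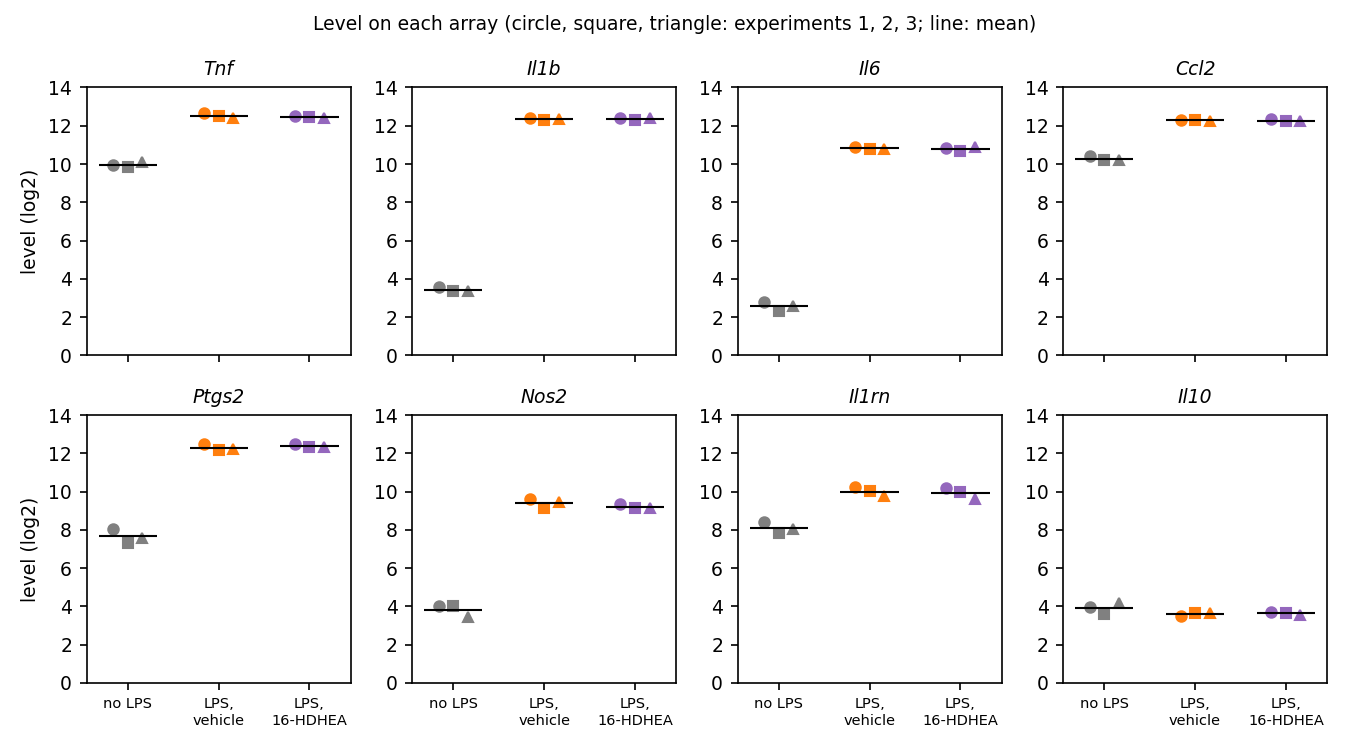
Log2 levels of 8 mediator genes on each array without LPS, with LPS and vehicle, and with LPS and 16-HDHEA; circles, squares and triangles are experiments 1, 2 and 3 and lines are means of 3 arrays. The LPS groups with and without 16-HDHEA overlap for every gene shown.

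Gene lists of pathways that LPS engages gave no member past the threshold. The 31 lists used here hold 605 genes, of which 508 were tested: 0 passed in either direction, and 3 were higher and 1 lower at an unadjusted p under 0.05, which is 0.787% against 2.97% of all genes tested. With experiment as a block, which fits the pairing of the arrays, 12 were higher and 9 lower at that p, or 4.13% against 4.43% of all genes, so that the lower share among list members was not kept; 0 passed after adjustment. The 12 higher ones were Alox5, Ltc4s, Pla2g7, Cpt1a, Plin2, Bnip3, Ciita, Fn1, Klf4, Gsdmd, Nlrp1b and Mmp9. The 9 lower ones were Ifit1, Ifit2, Mx2, Cmpk2, Rxra, Apoe, Dnajb9, Ppp1r15a and Cdh5. Groups did not overlap for 27 of the 508 (5.31%, against 7.16% of all genes tested). The 444 members whose interval lay inside a 1.5-fold change were 87.4%, against 87.1% over all genes.

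Of 19 tested pro-inflammatory cytokine genes, 9 were higher and 10 lower, with a median of -0.01. Tnfsf15, a tumour necrosis factor family ligand gene, had the smallest p of this list: it was at 7.68, 7.92 and 7.74 with 16-HDHEA and at 7.95, 8.09 and 7.97 with vehicle, groups that did not overlap, and the difference was -0.23 (-0.46 to 0.01, lower in 3 of 3 experiments; unadjusted p = 0.0548). Il12a, which encodes a subunit of interleukin-12, was measured at -0.30 (-0.63 to 0.04) from dim levels, below the 40th percentile on 2 of the 3 arrays with 16-HDHEA. Chemokine genes also divided evenly, 9 higher and 10 lower (median -0.01), with Cxcl14 at -0.33 (-0.76 to 0.09) from levels below the 40th percentile on 2 of the 3 arrays with 16-HDHEA, and the neutrophil attractant gene Cxcl3 the highest, its difference being 0.30.

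Signalling genes upstream and downstream of the LPS receptor had small differences. Toll-like receptor signalling genes were higher in 5 of 18 cases and lower in 13 (median -0.01), with the receptor gene Tlr2 at -0.08 (-0.32 to 0.16) and the adaptor kinase gene Irak2 at 0.13 (-0.13 to 0.40). All 18 intervals lay inside a 1.5-fold change. NF-kB pathway and target genes were higher in 11 of 17 cases (median 0.03). Nfkbiz, a nuclear co-activator of NF-kB, stood at 0.13 (-0.19 to 0.46). Bcl3, a related nuclear protein gene, was at 8.13, 8.17 and 8.19 with 16-HDHEA and at 8.06, 8.06 and 8.08 with vehicle, groups that did not overlap although the difference was 0.10 (-0.09 to 0.28). Anti-inflammatory and feedback genes were higher in 11 of 19 cases (median 0.05), from Dusp1, a phosphatase gene that shuts off MAP kinases, at -0.21 (-0.67 to 0.25) to the orphan nuclear receptor gene Nr4a1 at 0.37 (-0.31 to 1.05). Nr4a1 varied more between experiments than between treatments, at 7.76, 8.34 and 7.27 with 16-HDHEA and at 7.38, 7.87 and 7.01 with vehicle.

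Interferon-stimulated genes leaned to lower values without a call. Of 33, 26 were lower with 16-HDHEA and 7 higher, with a median of -0.07 and 0 at an unadjusted p under 0.05; with experiment as a block 4 were lower at that p (Ifit1, Ifit2, Mx2 and Cmpk2, of which Ifit1 and Cmpk2 are named after their values were seen) and 0 higher. Over all genes tested the split was 7775 lower to 7693 higher. Ifitm2, an interferon-induced gene outside this list and named below for its small p, was higher, by 0.30 (0.10 to 0.49). The list's median was -0.08, -0.09 and -0.05 in experiments 1, 2 and 3. Ifit2, an antiviral RNA-binding protein gene, was at 5.89, 6.40 and 6.39 with 16-HDHEA and at 6.28, 6.70 and 6.48 with vehicle, a difference of -0.26 (-0.61 to 0.09). The antiviral GTPase gene Mx2 was at 6.71, 6.89 and 7.15 against 6.90, 7.28 and 7.30, a difference of -0.25 (-0.57 to 0.07). Both were lower in 3 of 3 experiments while their groups overlapped. Oasl2, an oligoadenylate synthetase-like gene, was at 8.76, 8.75 and 8.91 against 8.99, 8.98 and 8.92, without overlap, and differed by -0.15 (-0.44 to 0.13). Ifit3 was the lowest at -0.35 (-1.09 to 0.39) and Oasl1, of the same family as Oasl2, the highest at 0.11 (-0.16 to 0.39). Leaving out the 16-HDHEA array of experiment 1 took the list's median to 0.00379, and leaving out the vehicle array of experiment 1 took it to -0.14. Its mean level lay between 8.37 and 8.69 on the arrays with 16-HDHEA, between 8.47 and 8.74 with vehicle, and between 6.44 and 6.78 without LPS.

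Nitric oxide and host defence genes were higher in 9 and lower in 10 of 19 cases (median -0.00242). Hp, the haptoglobin gene, was lowest at -0.22 (-0.53 to 0.08), and Arg1, whose product competes with Nos2 for arginine, was highest at 0.18 (-0.05 to 0.40). Arg1 was dim, with mean levels of 3.41 against 3.24, and below the 40th percentile on 1 of the 3 vehicle arrays. Inflammasome and pyroptosis genes were higher in 8 of 18 cases (median -0.02). Nlrp1b, an inflammasome sensor gene, had an unadjusted p of 0.0262, at 3.60, 3.45 and 3.64 against 3.39, 3.36 and 3.34, dim levels that did not overlap, and a difference of 0.20 (0.03 to 0.37). Gsdmd, the pore-forming gasdermin gene, stood at 0.14 (-0.06 to 0.35). Antigen presentation and costimulation genes were higher in 11 of 16 cases (median 0.02). Among them Ciita, the master regulator of MHC class II genes, was at 3.97, 3.97 and 4.16 against 3.76, 3.79 and 3.58, without overlap, and differed by 0.32 (0.06 to 0.59; unadjusted p = 0.0208 and adjusted p = 1.00 in limma).

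Lipid pathways, where an N-acyl ethanolamine could act or be metabolised, likewise had no member past the threshold. Of 24 endocannabinoid and N-acyl ethanolamine genes 19 were tested. They were higher in 11 cases (median 0.04), and all 19 intervals lay inside a 1.5-fold change. Cnr1, the lowest at -0.11, was below the 40th percentile on 2 of the 3 arrays in each group. Faah, which encodes the hydrolase that breaks down N-acyl ethanolamines, was at 4.54, 4.70 and 4.99 with 16-HDHEA and at 4.48, 4.50 and 4.51 with vehicle, groups that did not overlap, and differed by 0.25 (-0.03 to 0.52, higher in 3 of 3 experiments). Inpp5d, a phosphoinositide phosphatase gene, stood at 0.11 (-0.12 to 0.33). The cannabinoid receptor gene Cnr2 was at 5.87, 6.04 and 5.96 against 6.10, 5.90 and 5.97, overlapping levels that differed by -0.04 (-0.27 to 0.20). Adgrf1, whose product is a receptor for docosahexaenoyl ethanolamide, likewise stayed under the 40th percentile on each of the 6 arrays. Of omega-3 and resolvin-type lipid receptor genes only 6 of 12 were tested, 2 higher and 4 lower, with the retinoid X receptor gene Rxra lowest at -0.27 (-0.59 to 0.05).

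Eicosanoid and oxylipin genes were higher in 12 of 21 cases (median 0.02) with Alox5 the highest. Alox5 encodes 5-lipoxygenase, the entry enzyme of leukotriene synthesis, and was at 5.88, 5.40 and 5.88 with 16-HDHEA and at 5.53, 5.07 and 5.35 with vehicle, higher in 3 of 3 experiments by 0.36, 0.33 and 0.53. Its groups overlapped, and the mean difference was 0.41 (-0.02 to 0.83; unadjusted p = 0.0603). With experiment as a block the Alox5 interval was 0.14 to 0.67 (unadjusted p = 0.00622 in limma), and it did not pass after adjustment. Ltc4s, the leukotriene C4 synthase gene, was at 5.33, 5.09 and 5.48 against 5.10, 4.95 and 4.86, a difference of 0.33 (0.05 to 0.60; unadjusted p = 0.0245). The adjusted p of both was 1.00 in limma. Pla2g7, the platelet-activating factor hydrolase gene, stood at 0.22 (-0.12 to 0.56). In cells without LPS the mean levels were 7.83 for Alox5, 5.77 for Ltc4s and 5.06 for Pla2g7. The mean of Alox5 was 5.72 with 16-HDHEA, 5.75 with 13-HDHEA, 5.76 with both compounds and 5.31 with vehicle. For Ltc4s these means were 5.30, 5.46, 5.29 and 4.97. The shift was thus not particular to 16-HDHEA, and the same vehicle arrays serve each difference.

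PPAR target and fatty acid oxidation genes were higher in 10 of 17 cases (median 0.03). In either direction, 12 of the 17 had the same sign in each experiment, against 25.1% of all genes tested and 29.5% of list members. Plin2, which coats lipid droplets, was at 10.59, 10.85 and 10.44 against 10.41, 10.63 and 10.19, overlapping levels that differed by 0.22 (-0.07 to 0.50). With experiment as a block the Plin2 interval was 0.05 to 0.38 (unadjusted p = 0.0149 in limma), and it did not pass after adjustment. The mean of Plin2 was 10.63 with 16-HDHEA, 10.77 with 13-HDHEA, 10.72 with both compounds and 10.41 with vehicle. Cpt1a, the gate of mitochondrial fatty acid oxidation, differed by 0.20 (-0.05 to 0.46). LXR target and cholesterol export genes were higher in 4 of 7 cases (median 0.02). Apoe, the apolipoprotein E gene, was at 3.89, 3.95 and 4.22 against 4.25, 4.22 and 4.34, and differed by -0.25 (unadjusted p = 0.0463). The cholesterol exporter gene Abca1 differed by 0.09 (-0.21 to 0.39). Of cholesterol biosynthesis genes 7 of 17 were higher (median -0.00269), with Insig1, a brake on sterol synthesis, lowest at -0.17 (-0.55 to 0.21). Of fatty acid synthesis genes 9 of 16 were higher (median 0.01), from the glycerolipid synthesis gene Gpam at -0.24 (-0.51 to 0.03) to the lipogenic regulator gene Srebf1 at 0.13 (-0.05 to 0.32). Every interval of these last 2 lists lay inside a 1.5-fold change.

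Stress response genes had small differences. Unfolded protein response and integrated stress response genes were lower in 16 of 24 cases (median -0.03). Dnajb9, an endoplasmic reticulum chaperone gene, was at 8.72, 8.68 and 8.68 with 16-HDHEA and at 8.94, 9.11 and 8.79 with vehicle, groups that did not overlap, and differed by -0.25 (-0.50 to 0.00; unadjusted p = 0.0507). The chaperone gene Hspa5 was at 10.20, 10.19 and 10.12 against 10.32, 10.34 and 10.25, again without overlap, and differed by -0.13 (-0.31 to 0.04). Ppp1r15a, which restores translation after stress, was lowest at -0.29 (-0.66 to 0.09). NRF2 and antioxidant genes were higher in 14 of 19 cases (median 0.03), with the glutathione peroxidase gene Gpx1 highest at 0.13 (-0.03 to 0.29), and all 19 intervals lay inside a 1.5-fold change.

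Metabolic and growth genes likewise had no member past the threshold. Glycolysis and hypoxia-linked genes were higher in 10 of 15 cases (median 0.04), with the mitophagy gene Bnip3 highest at 0.31 (-0.07 to 0.69). Hif1a, the hypoxia-inducible factor gene, was at 8.73, 8.67 and 8.53 against 8.49, 8.51 and 8.49, without overlap, and differed by 0.15 (-0.07 to 0.36). Respiration and TCA cycle genes were higher in 13 of 21 (median 0.01). Cell cycle and DNA replication genes were lower in 18 of 32 (median -0.03), with the cyclin gene Ccne1 at -0.23 (-0.56 to 0.10) and the replication clamp gene Pcna at -0.06 (-0.22 to 0.10). Apoptosis and p53 target genes were higher in 9 of 15 (median 0.00211), and lysosome and autophagy genes in 10 of 22 (median -0.00038). Every interval of the respiration, apoptosis and lysosome lists lay inside a 1.5-fold change.

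The labelled cell type was borne out by its markers. All 19 macrophage identity genes with a probe set were tested, and their mean level was 9.71 to 9.74 on the arrays with 16-HDHEA and 9.65 to 9.73 with vehicle. They were higher in 15 cases and lower in 4 (median 0.03), with the Fc receptor gene Fcgr3 highest at 0.24 (-0.02 to 0.49) and the integrin gene Itgam, at a level of 11.77, at 0.08 (-0.07 to 0.22). Alternative activation markers were higher in 6 of 11 cases (median 0.01). In this list Klf4, a transcription factor gene linked to alternative activation, was at 5.76, 5.28 and 5.11 with 16-HDHEA and at 5.19, 4.74 and 4.43 with vehicle, higher in 3 of 3 experiments. Its groups overlapped and its interval was wide, at 0.59 (-0.04 to 1.22; unadjusted p = 0.0631 and adjusted p = 1.00 in limma). With experiment as a block the Klf4 interval was 0.16 to 1.03 (unadjusted p = 0.0121 in limma), and it did not pass after adjustment. Fn1, the fibronectin gene, was dim, at 3.57, 3.58 and 3.71 against 3.37, 3.51 and 3.47, without overlap, and differed by 0.17 (-0.01 to 0.34). Osteoclast markers were higher in 3 of 10 cases (median -0.02), with the gelatinase gene Mmp9 at 0.20 (-0.14 to 0.54).

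Markers of cells other than macrophages had low mean levels, with some brighter members. The mean level of the tested ones was 4.64 to 4.87 with 16-HDHEA and 4.37 to 4.77 with vehicle for neutrophils, 3.50 to 3.58 against 3.28 to 3.72 for lymphocytes, 3.69 to 3.86 against 3.76 to 3.87 for fibroblasts, and 4.02 to 4.18 against 3.98 to 4.11 for epithelium and endothelium. In both groups, 3 of 5, 3 of 5, 7 of 9 and 10 of 10 of these had mean levels above the 40th percentile. All 5 tested neutrophil markers were higher (median 0.18), as were 3 of 5 lymphocyte markers (0.10), 5 of 9 fibroblast markers (0.00069) and 8 of 10 epithelial and endothelial markers (0.06), and none had an unadjusted p under 0.05 without the block. The members Csf3r and Cdh5 are named after their values were seen. The brightest neutrophil marker, the granulocyte colony-stimulating factor receptor gene Csf3r, was at 7.85, 7.79 and 7.86 with 16-HDHEA and at 7.80, 7.55 and 7.76 with vehicle, overlapping levels with a difference of 0.13 (-0.09 to 0.35). Cdh5, an endothelial cadherin gene, was at 5.48, 5.69 and 5.55 against 5.92, 5.80 and 5.86, groups that did not overlap, and differed by -0.29 (-0.59 to 0.02; unadjusted p = 0.0669, and 0.0399 with experiment as a block). All arrays are labelled as the RAW264.7 line alone, and whether these signals are transcripts of that line or background was not tested.

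**Figure D3:**
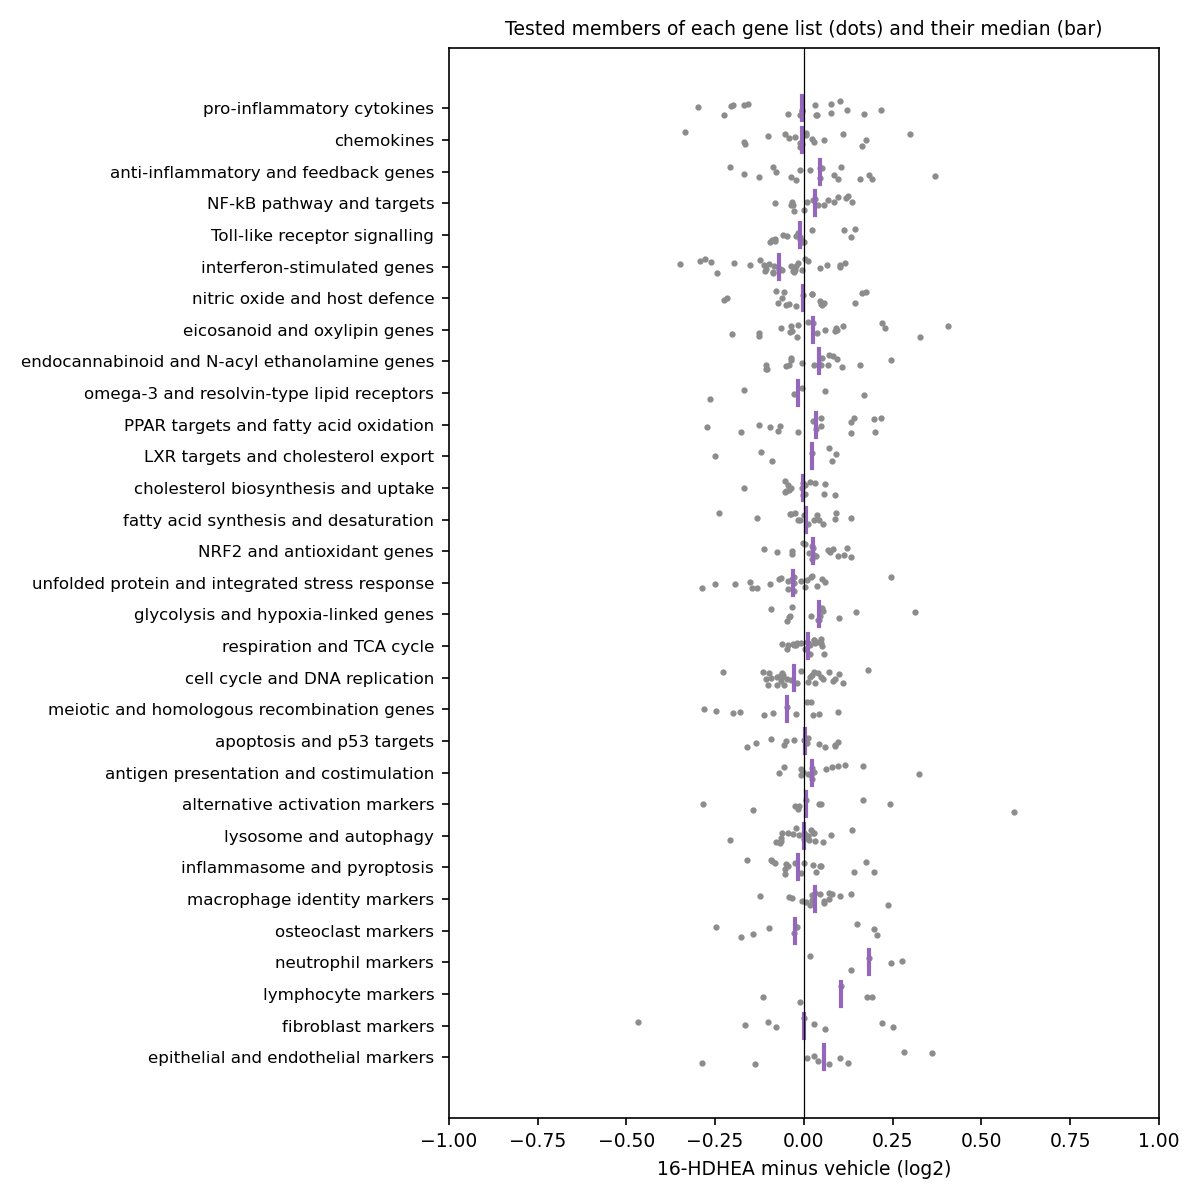
Each dot is a tested gene of 1 of 31 lists, placed by its log2 difference between 16-HDHEA and vehicle (horizontal axis), and each bar is the list's median. List medians run from -0.07 for interferon-stimulated genes to 0.18 for neutrophil markers, of which 5 were tested.

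The genes with the smallest p were mostly dim. Among those higher in all 3 experiments and above the 40th percentile in both groups, Slc12a3, a sodium chloride cotransporter gene, came first. It was at 4.23, 4.26 and 4.53 with 16-HDHEA and at 3.74, 3.90 and 3.89 with vehicle, groups that did not overlap, a 1.41-fold difference of 0.50 on the log2 scale (0.29 to 0.70; adjusted p = 0.683 in limma). St8sia5, a sialyltransferase gene, was at 4.44, 4.56 and 4.42 against 3.72, 3.97 and 4.20 (difference 0.51). The others of the 8 were the zinc finger gene Zfp458 (0.43), Ppp1r26 (0.51), Xkr5 (0.42), Ifitm2 (0.30), the cytochrome P450 gene Cyp2d34 (0.43) and the kinase gene Stk36 (0.35). Of these, Ifitm2, an interferon-induced transmembrane protein gene that hinders virus entry, was the bright one, at 9.47, 9.73 and 9.64 against 9.33, 9.18 and 9.43, a 1.23-fold difference (0.10 to 0.49 on the log2 scale).

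Ppcs, which encodes a synthetase of the coenzyme A pathway, led the lower genes. It was at 3.95, 3.99 and 3.85 with 16-HDHEA and at 4.56, 4.68 and 4.29 with vehicle, also without overlap, and differed by -0.58 (-0.85 to -0.32; adjusted p = 0.767 in limma). Hoxb7, a homeobox gene, was the brightest of the 8, at 6.09, 5.85 and 5.72 against 6.29, 6.39 and 6.24, a difference of -0.42 (-0.67 to -0.18). The remaining ones were Wdr90 (-0.40), the defensin gene Defb15 (-0.63), the cytokine gene Clcf1 (-0.38), Fxyd7 (-0.34), the phospholipase gene Plaat3 (-0.36) and Ypel4 (-0.53). Apart from Slc12a3 and Ppcs, all 16 had adjusted p = 1.00 in limma, so that their order is a ranking by p and not a set of calls. Groups were separate for all 16 and for 7.16% of all genes tested. Choosing genes by a small p favours separate groups, so this adds no support.

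A measured difference beyond 2-fold was found for 2 genes, named after their values were seen. Sirpb1c, a signal-regulatory protein gene with close paralogs whose probes may share signal, was at 4.79, 4.21 and 4.11 with 16-HDHEA and at 3.62, 3.63 and 2.81 with vehicle, a difference of 1.02 (0.29 to 1.75; adjusted p = 1.00 in limma). Fam71a was at 4.12, 3.38 and 3.28 against 4.96, 4.09 and 4.77, a difference of -1.01 (-1.96 to -0.06; adjusted p = 1.00 in limma). Both had wide intervals, and the Fam71a groups overlapped.

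The positional isomers 13-HDHEA and 16-HDHEA were compared directly, at the same 5.0 µM and 24 h, which was the 1 pair of compounds tested. In this comparison 1 gene was higher with 16-HDHEA (0.00646% of those tested) and 0 were lower, with 480 genes (3.10%) at an unadjusted p under 0.05 in limma. The inflammatory genes did not pass: 16-HDHEA minus 13-HDHEA was 0.02 for Tnf (95% interval -0.16 to 0.21), 0.03 for Il1b (-0.19 to 0.24), -0.05 for Ccl2 (-0.22 to 0.13), 0.04 for Ptgs2 (-0.28 to 0.37) and -0.01 for Nos2 (-0.45 to 0.44). Il6 stood at 0.18 (-0.10 to 0.46) and Il10 at 0.25 (-0.02 to 0.51), both higher with 16-HDHEA in 3 of 3 experiments. The 95% interval excluded a 1.5-fold difference between isomers for 87.0% of genes and a 2-fold one for 98.9%.

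**Figure D4:**
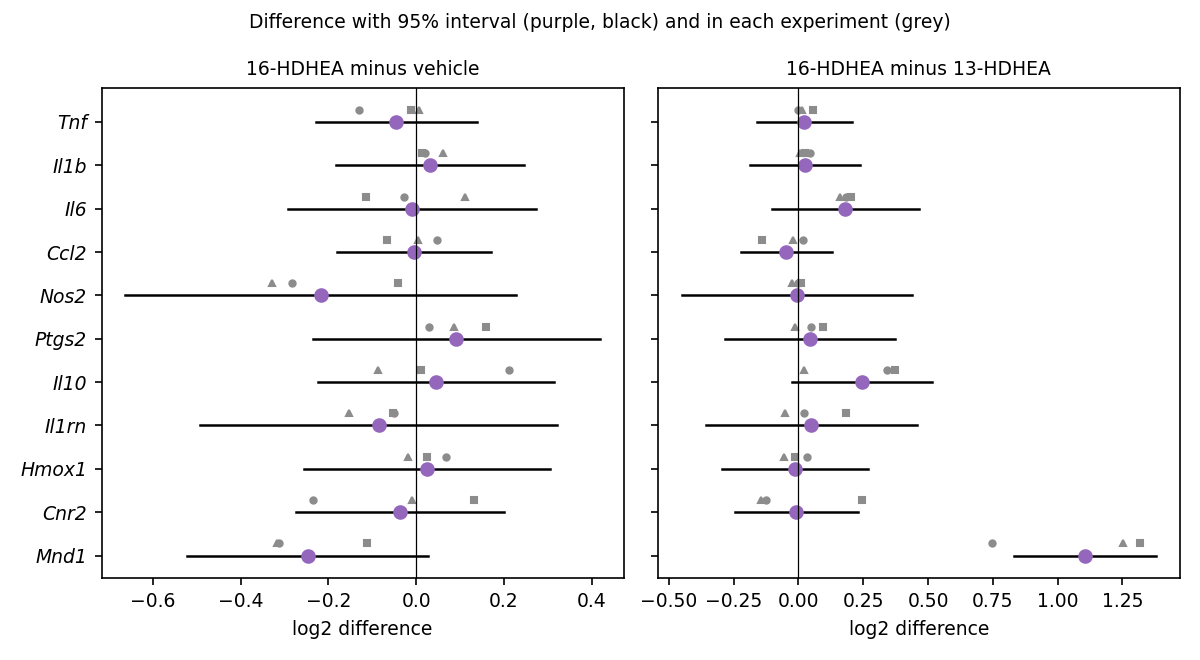
Log2 differences with 95% intervals (purple points, black lines) for 10 inflammatory and lipid-sensing genes and Mnd1, between 16-HDHEA and vehicle (left) and between 16-HDHEA and 13-HDHEA (right); grey marks are experiments 1, 2 and 3. Every interval on the left includes 0, and on the right only that of Mnd1 (0.83 to 1.38) does not.

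The gene that separated the isomers was Mnd1 (Entrez gene 76915, probe set 17406323), whose protein works with the strand-exchange recombinases of meiosis. It was at 3.88, 4.10 and 4.10 with 16-HDHEA and at 3.13, 2.79 and 2.85 with 13-HDHEA, groups that did not overlap, as for 6.59% of all genes tested. Their means differed by 1.11 with an SE of 0.127 and a 95% interval of 0.83 to 1.38 (adjusted p = 0.0102 in limma), with 0.75, 1.32 and 1.25 in experiments 1, 2 and 3. Because all 3 arrays with 13-HDHEA fell under their 40th percentile, the fold of the means is a lower bound against the mean of those percentiles, 3.21. By this bound the mean level of Mnd1 was at least 1.77-fold higher with 16-HDHEA. The bound has no interval, and experiment 1, at 0.75 on the log2 scale, lay below it. Mnd1 had been fixed by name for its low level on these same 13-HDHEA arrays, so that the low level is not independent evidence here. The call was lost without replicate 2 or replicate 3 of either group (adjusted p = 0.086 and 0.108 without those of 13-HDHEA, 0.112 and 0.109 without those of 16-HDHEA) and when only the arrays of these groups entered the fit (adjusted p = 0.241, and 0.916 with experiment as a block).

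Against vehicle, Mnd1 with 16-HDHEA did not pass. Vehicle arrays had 4.19, 4.22 and 4.42, above every 16-HDHEA array, and the difference was -0.25 (-0.52 to 0.03; unadjusted p = 0.0732, adjusted p = 1.00 in limma). Replicates 2 and 3 with 16-HDHEA held the same Mnd1 value to every deposited decimal, as 1742 genes (11.3%) did on at least 2 of the 6 arrays. Cells without LPS had the highest level, 5.35 ± 0.167 (SD, n = 3), and cells given 2.5 µM of each compound had 4.06 ± 0.188, doses that differ from those above. Of the other 12 tested meiotic and homologous recombination genes, 5 were higher than with vehicle and 7 lower (median -0.03), and none passed the test, with Palb2, a partner of the BRCA proteins, lowest at -0.28 (-0.64 to 0.08) and Rad54l, a recombination motor gene, at -0.20 (-0.55 to 0.15).

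**Figure D5:**
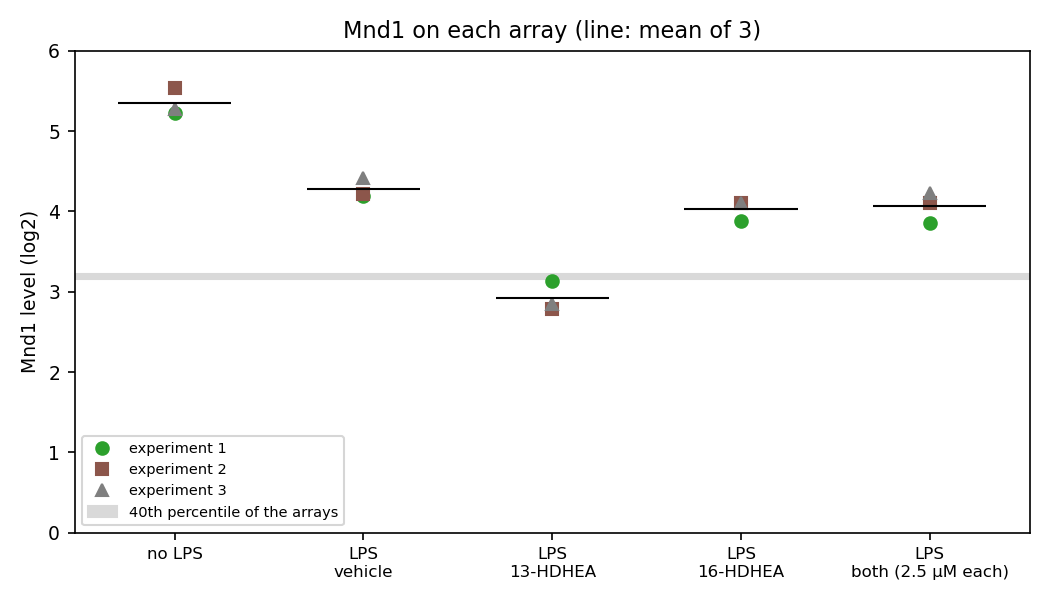
Mnd1 log2 level on each array (vertical axis) in the 5 groups, with the mean of 3 arrays as a line and the range of the arrays' 40th percentiles in grey. The 13-HDHEA arrays lie below the grey band and the 16-HDHEA arrays, at 3.88 to 4.10, above it.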

How the data were processed

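The series matrix deposited by the authors holds log2 signals, 1 per probe set and array. RMA made them, per the submitters' processing notes; its version is not given in the sources used here. RMA quantile-normalizes, which hides a change common to most genes, and it shrinks differences of dim probe sets. Array medians lay between 3.62 and 3.69. Of 41345 probe sets, 23521 had 1 gene symbol, 1814 several, and 16010 were not listed in the platform's gene table. Of several probe sets for a gene, the one with the highest mean was kept, leaving 22180 genes, of which 15468 exceeded their array's 40th percentile on at least 3 arrays and were tested.

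Differences came from limma 3.58.1 (lmFit, eBayes) in R 4.3.3, on group means over all 15 arrays (10 residual degrees of freedom), two-sided, with Benjamini-Hochberg adjustment across the 15468 genes. Intervals are 95% intervals from this fit. They hold the spread between experiments, and their median half-width was 0.271, against 0.239 with experiment as a block. Precision is limited by having 3 arrays in each group. The scripts were tested on simulated data.

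Same-numbered arrays are paired, since the sample labels tie each number to 1 experiment. Deviations from group means of same-numbered vehicle and 16-HDHEA arrays correlated between 0.16 and 0.278, and of differently numbered ones between -0.23 and -0.0346. Deviations cancel out within a group, so positive values for same numbers push those for different numbers negative. The latter therefore add no separate support. Over all groups, 28 of 30 same-numbered pairs exceeded 0.1. The fit with experiment as a block was an alternative, and its values are given only where stated. The labels do not say how the experiments differed. A p-value of the reported fit sets a difference against the spread between arrays within groups, which holds that between experiments.

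The groups, gene lists and naming rule were chosen with earlier results of these data known. Genes named are called genes (up to 10 a direction), the 8 a direction with the smallest p among those with 1 sign in all experiments and above the 40th percentile in both groups (predicted and RNA genes left out), up to 3 of smallest p per list, the extremes of a list, and 13 fixed genes. Alternatives were other filters, scalings, probe set rules, variance priors, sets of arrays and leaving out each array. No coordinates or sequences are printed, since the array's build is not given in the sources used here.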

Additional observations from a re-analysis of the deposited data

Results flagged for a closer look

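The difference between the isomers in Mnd1 was flagged because the test of that difference itself passed: the measured 16-HDHEA minus 13-HDHEA difference was 1.11 on the log2 scale (adjusted p = 0.0102 in limma), positive in 3 of 3 experiments. Since all 3 arrays with 13-HDHEA were below their 40th percentile, the level there has only a bound. By the group means, Mnd1 was at least 1.77-fold higher with 16-HDHEA, a bound without an interval. The cause was not tested.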

How the results depend on the processing

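Between 16-HDHEA and vehicle, 0 genes passed in limma in each of the 15 alternatives run, the smallest adjusted p lying between 0.0879 (without replicate 1 of 16-HDHEA) and 1. Genes at an unadjusted p under 0.05 numbered 460 in the reported fit, 232 with a 60th percentile filter, 803 without a filter, 686 with replicate number as a block, 828 with the block on the 6 arrays alone, 391 with a trended robust prior and 431 to 530 when an array was left out.

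The replicate block changed no call in either comparison; with it, the smallest adjusted p was 0.482 for 16-HDHEA against vehicle and 0.0364, that of Mnd1, for 16-HDHEA against 13-HDHEA. The count of 1 gene between the isomers fell to 0 when only the arrays of these groups entered the fit, with and without the block, and was 0 to 1 when an array was left out; in the other alternatives the gene was Mnd1. The Mnd1 difference between isomers stayed between 1.04 and 1.21. Among genes at an unadjusted p under 0.05 between the isomers, 49.4% were higher with 16-HDHEA, 42.2% after centring arrays on their median, and 67.6% with the 60th percentile filter, which tests fewer genes.

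Of 1171 values of 79 gene differences under the alternatives, 17 changed sign, all in 8 uncalled genes near 0. Centring on the median took Ccl2 to 0.00195. Leaving out each array gave ranges of -0.0983 to 0.0226 for Tnf, -0.0579 to 0.0588 for Il6, -0.00225 to 0.0899 for Il10, -0.21 to 0.0597 for Il1rn, -0.0491 to 0.0172 for Ccl2, -0.0832 to 0.113 for Hmox1, -0.0817 to 0.0189 for Cnr2 and -0.041 to 0.178 for Abca1. List medians moved by more than the SD of the 3 experiments' medians in 39 of 465 values, in 16 of 31 lists. No cause was tested.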
